A study of Mus musculus with 19 samples.

Results

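To learn how far astrocytes of a mouse model of Alzheimer's disease differ from those of healthy mice when their JAK2-STAT3 pathway is inhibited, APP-SOCS3 astrocytes were compared directly with WT-GFP astrocytes. The comparison uses 12 of the 19 samples of the series, 5 APP-SOCS3 and 7 WT-GFP samples of GFP+ astrocytes. Genes were tested when their mean normalized level was at least 10 in either group, which held for 22958 of 60567 listed genes. A level is the number of reads counted on a gene divided by 1 size factor per sample, with no correction for gene length, so levels are compared between samples and never between genes.

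RNAseq was performed on cells sorted by FACS from the hippocampus of male C57bl6 mice at 9 months of age. WT-GFP mice were non-transgenic littermates that received, in the CA1 region, an adeno-associated virus (AAV) encoding GFP alone. APP-SOCS3 mice carry the APP/PS1dE9 transgenes, among them an *App* gene that is part mouse and part human and bears the Swedish mutations, and received an AAV encoding murine SOCS3 together with the AAV encoding GFP, at the same total titer. In both groups the vectors used gfaABC1D, a short synthetic promoter derived from the GFAP gene that is active in astrocytes, and mice were injected months before sorting. The sort selected cells for GFP and not for SOCS3, and the hippocampus was dissociated with papain and depleted of myelin. The groups differ by the transgenes and by the SOCS3 vector at once, and the contributions of both cannot be told apart here. Values of 4 APP-GFP samples, from APP/PS1dE9 mice that received the GFP vector alone, and of 3 samples of GFP- cells of WT-GFP mice are given beside the comparison. The study counts its samples as mice, and its methods state that both hippocampi of a mouse were sorted independently. The labels do not tie a sample to a mouse, so p-values measure the spread between these samples.

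Suppressor Of Cytokine Signaling 3 (SOCS3) is a feedback inhibitor. Cytokines that signal through the gp130 receptor activate the kinase JAK2, which phosphorylates the transcription factor STAT3. Active STAT3 binds DNA and induces its target genes, *Socs3* among them, and the SOCS3 protein then blocks the kinase. In the diseased brain, astrocytes become reactive: they enlarge, make more of the intermediate filament GFAP and express genes of immune pathways. The STAT3 pathway is known as one of the main triggers of this state.

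The promoters of 4 named genes that hold a binding motif are shown with the letters that match it. Each sequence runs from 250 bases before to 50 bases after the RefSeq start of the gene (GRCm38.p6, the same build as mm10) and is written 5′ to 3′ on the strand of the gene. For *Socs3* (chr11:117969317-117969616, minus strand) and *Gfap* (chr11:102897151-102897450, minus strand), which are induced by STAT3 in textbook accounts, capitals mark a STAT motif, TTCNNNGAA. For *Hspa1b* (chr17:34959189-34959488, minus strand) and *Hspb1* (chr5:135887669-135887968, plus strand), which are genes of the heat shock response, capitals mark pairs of heat shock repeats, GAANNTTC.
Socs3: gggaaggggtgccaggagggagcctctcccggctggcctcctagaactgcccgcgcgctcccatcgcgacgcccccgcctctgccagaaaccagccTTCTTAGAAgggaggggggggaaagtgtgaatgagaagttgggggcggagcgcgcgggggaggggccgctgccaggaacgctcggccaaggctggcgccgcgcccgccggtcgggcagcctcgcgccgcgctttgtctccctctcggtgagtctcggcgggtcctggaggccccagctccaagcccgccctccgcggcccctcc
Gfap: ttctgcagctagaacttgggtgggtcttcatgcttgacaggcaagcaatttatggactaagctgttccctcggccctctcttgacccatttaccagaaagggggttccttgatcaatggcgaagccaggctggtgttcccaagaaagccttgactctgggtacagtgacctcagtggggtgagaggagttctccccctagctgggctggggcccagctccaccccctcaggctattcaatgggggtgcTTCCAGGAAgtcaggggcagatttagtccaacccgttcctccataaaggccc
Hspa1b: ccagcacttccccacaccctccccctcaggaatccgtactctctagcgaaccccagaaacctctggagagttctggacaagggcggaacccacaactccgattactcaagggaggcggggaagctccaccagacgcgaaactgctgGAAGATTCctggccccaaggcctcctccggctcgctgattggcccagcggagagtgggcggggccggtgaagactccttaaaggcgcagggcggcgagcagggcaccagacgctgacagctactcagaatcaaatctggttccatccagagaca
Hspb1: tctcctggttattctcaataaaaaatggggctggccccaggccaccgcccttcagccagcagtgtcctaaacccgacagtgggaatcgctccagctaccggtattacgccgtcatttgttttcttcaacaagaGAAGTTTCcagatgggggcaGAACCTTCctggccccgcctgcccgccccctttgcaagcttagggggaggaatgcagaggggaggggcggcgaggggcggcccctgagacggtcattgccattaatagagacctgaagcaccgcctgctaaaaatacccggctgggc
Both motifs read the same on both strands. The STAT motif was found in 8.3% of 32851 mouse promoters of this length and the heat shock motif in 7.86%. A match is a description of the letters and not a site of binding. Of 19 STAT3 target genes listed, 16 had a promoter sequence and 3 of these held the motif (*Gfap*, *Icam1* and *Tnfrsf1a*). Of the 3 targets called lower, 1 held it. No STAT motif was found in the promoters of *Stat3*, *Cst7*, *Cebpb*, *Mcl1*, *Vim*, *Serpina3n*, *Adrb1* and *Rgr*. Of 2 promoters of *Pdcd4*, 1 held the motif. In the list of heat shock proteins and chaperones, 14 of 19 genes had a promoter sequence and 9 held the heat shock motif.

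In APP-SOCS3 astrocytes, parts of several gene lists were called lower than in WT-GFP astrocytes, with no member higher: 10 of 22 immediate early genes, 6 of 18 complement genes, 11 of 35 actin cytoskeleton genes and 4 of 18 heat shock entries. Of all genes tested, 2.02% were called lower and 3.19% higher. Microglial markers (11 of 20) and endothelial markers (15 of 20) were lower in the same samples. With the mean level of endothelial markers as a covariate, 2 immediate early genes and 1 entry of each other function list were called lower, and the complement median was above 0. Over all genes tested, this fit called 1018 higher and 326 lower. Endothelial markers themselves differed between the groups, so the fit cannot tell group and marker level apart. *Gfap*, the intermediate filament gene of reactive astrocytes, and *C4b*, a complement gene, were among the lower genes. Genes called higher included *Socs3* itself, *Cst7*, which encodes an inhibitor of lysosomal cathepsins, the potassium channel gene *Kcnn2* and the adrenergic receptor gene *Adrb1*. Of 34 function lists, 13 had no member called by limma, and they are set apart here by that outcome. They include glutamate uptake, water and potassium handling, cholesterol synthesis, antioxidant defence, autophagy, cell cycle and DNA repair. Of their 250 tested genes, 4 had an unadjusted p of at most 0.05. In these functions edgeR called 2 genes and DESeq2 4, all lower, and a limma fit of the 9 samples with at least 20000 genes detected called 4 higher and 12 lower. Calls are those of limma on all 12 samples unless another fit is named.

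Using limma on log2(level + 1), a gene counted as called if its unadjusted p did not exceed 0.05 and its fold change reached 1.5. Of the genes tested, 1197 (5.21%) were called, with 733 (3.19%) higher and 464 (2.02%) lower in APP-SOCS3 astrocytes. Among the 12705 genes that averaged 100 or more in at least 1 group, 139 genes (1.09%) were called higher and 345 (2.72%) lower. With the Benjamini-Hochberg method, 7 genes (0.0305%) had an adjusted p under 0.05, and 1310 genes had an unadjusted p of at most 0.05. With no difference between groups, about 1 gene in 20 would have such an unadjusted p, so many single calls may be due to chance. The 2 groups did not overlap for 130 genes (0.566%), of which 52 were called higher and 61 lower. A list with 1 called member in 20 has the share of calls of all genes in either direction. Counts of lower and higher members are read beside 2.02% and 3.19%, or 2.72% and 1.09% of genes that averaged 100 or more. At these shares a short list often has no higher call. The direction of the calls depended on the test. On whole reads, edgeR called 441 genes higher and 762 lower, and DESeq2 called 340 higher and 824 lower. The median log2 fold change over all genes tested was 0.19 with limma, 0.02 with edgeR and -0.00 with DESeq2, and the medians of lists are read beside it. The share of calls that were higher was 61.2% with limma, 36.7% with edgeR, 29.2% with DESeq2 and 83.8% with samples rescaled to equal upper quartiles. Rescaling to upper quartiles moved the median of all genes to 0.52. Under it the medians of STAT3 targets (0.02), chemokines (0.18), cytokines (0.02), antigen presentation (0.12), interferon-stimulated (0.30), heat shock (0.21) and actin genes (0.09), below 0 in the fit described here, were above 0 and below the median of all genes.

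Reads counted on genes were between 19331876 and 32621917 per sample. The number of genes detected was 22050 to 26757 in APP-SOCS3 samples and 15575 to 25514 in WT-GFP samples, with WT-GFP 1, 2 and 3 under 20000. The 16 astrocyte markers listed summed to 902245 to 1346390 in APP-SOCS3, 784373 to 1184320 in WT-GFP and 30488 to 98398 in GFP- samples, and none of them was called. The summed level of 20 microglial markers was 8929 to 15969 (median 14831) in APP-SOCS3, 11927 to 42184 (median 29319) in WT-GFP and 138846 to 244255 in GFP- samples. Endothelial markers summed to 2038 to 9373 (median 3243) in APP-SOCS3, 6138 to 56707 (median 18376) in WT-GFP and 195952 to 306006 in GFP- samples. Mural cell markers summed to 2489 to 4213 (median 3681) in APP-SOCS3 and 3582 to 34402 (median 9963) in WT-GFP samples. In these bulk samples, fewer cells of a type and less RNA per cell cannot be told apart.

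**Figure D1:**
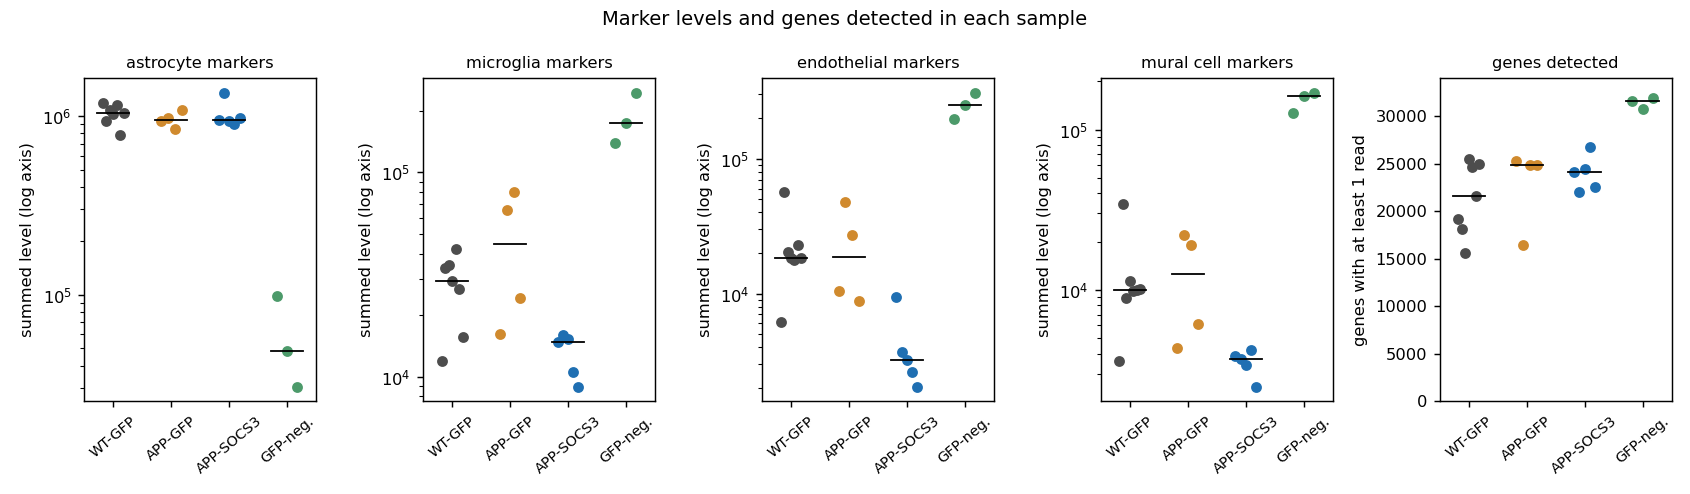
Summed normalized level of astrocyte, microglia, endothelial and mural cell markers and number of genes detected, for each sample of the 3 astrocyte groups and of GFP-negative cells (points; bars are medians). Microglial sums have a median of 14831 in APP-SOCS3 and 29319 in WT-GFP astrocytes, and all are below those of GFP-negative cells.

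*Socs3* levels were 14488, 37750, 13296, 15732 and 16050 in the 5 APP-SOCS3 samples and 458 to 1208 (median 809) in WT-GFP samples. All APP-SOCS3 samples were above all WT-GFP samples, and APP-SOCS3 2 was the highest. Mean *Socs3* levels were 23.3 times as high as in WT-GFP astrocytes (19463 ± 10281, SD, n = 5, against 834 ± 269, SD, n = 7), with a log2 fold change of 4.49 ± 0.29 (SE; limma adjusted p = 8.26e-06). The exact 2-sided permutation p was 0.00253, the smallest that 792 ways to assign the labels allow. Reads of the murine vector transcript fall on the same gene, so vector and endogenous transcripts cannot be told apart. In GFP- cells of WT-GFP mice, mean *Socs3* levels were 14611.

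Of 18 gp130 receptor, JAK and STAT genes tested, 2 were called higher and 2 lower. *Stat3* levels were 1814, 2194, 975, 1575 and 1587 in APP-SOCS3 samples and 1263 to 3484 (median 2380) in WT-GFP samples. The groups overlapped, and *Stat3* was called lower by 0.63 ± 0.26 on the log2 scale (SE; limma adjusted p = 0.819; exact permutation p = 0.0455). The call of *Stat3* was lost without WT-GFP 3, 5 or 7 or APP-SOCS3 3, with log2 fold changes of -0.57 to -0.45. *Stat6*, which mediates signalling of interleukin 4, fell by 2.34 ± 0.44 (limma adjusted p = 0.104), from 406 ± 124 to 88.2 ± 41.4, without overlap between the groups. In GFP- cells, *Stat6* levels were 2902 to 4255, above all astrocyte samples. The *Stat6* interval holds exons of *Nab2* on the other strand, and the library kit does not mark strand, so reads of both genes cannot be told apart.

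*Cntfr*, the receptor of ciliary neurotrophic factor that signals through gp130, had levels of 2551, 1599, 5182, 3426 and 1383 in APP-SOCS3 samples. WT-GFP samples had 649 to 1571 (median 1133). APP-SOCS3 5 lay within the range of WT-GFP samples and the other 4 above it. *Cntfr* rose by 1.23 ± 0.34 on the log2 scale (SE; limma adjusted p = 0.394; exact permutation p = 0.0126), and mean APP-GFP levels were 1712. *Stat5a* was called higher at low levels (148 against 61.5, or 31.5 in WT-GFP without WT-GFP 7), by 3.02 on the log2 scale with limma and 1.28 with edgeR, neither edgeR nor DESeq2 called it, and the call was lost on leaving out any of 7 of the 12 samples. Its interval holds exons of *Stat3*. Of the other components, *Jak2* had 658 ± 332 against 1009 ± 375 and was not called, and the gp130 gene *Il6st* had 435 ± 289 against 778 ± 577 and was not called. *Osmr*, the receptor of oncostatin M, had 73.1 ± 60.2 against 226 ± 151, with no call. Of 16 feedback inhibitors of the pathway tested other than *Socs3*, none was called. Mean levels of *Pias1* were 2221 and 2125, and those of *Ptpn2* were 792 and 804, in APP-SOCS3 and WT-GFP astrocytes. *Stat5a*, *Jak2*, *Il6st* and *Osmr* were chosen after their values were seen.

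**Figure D2:**
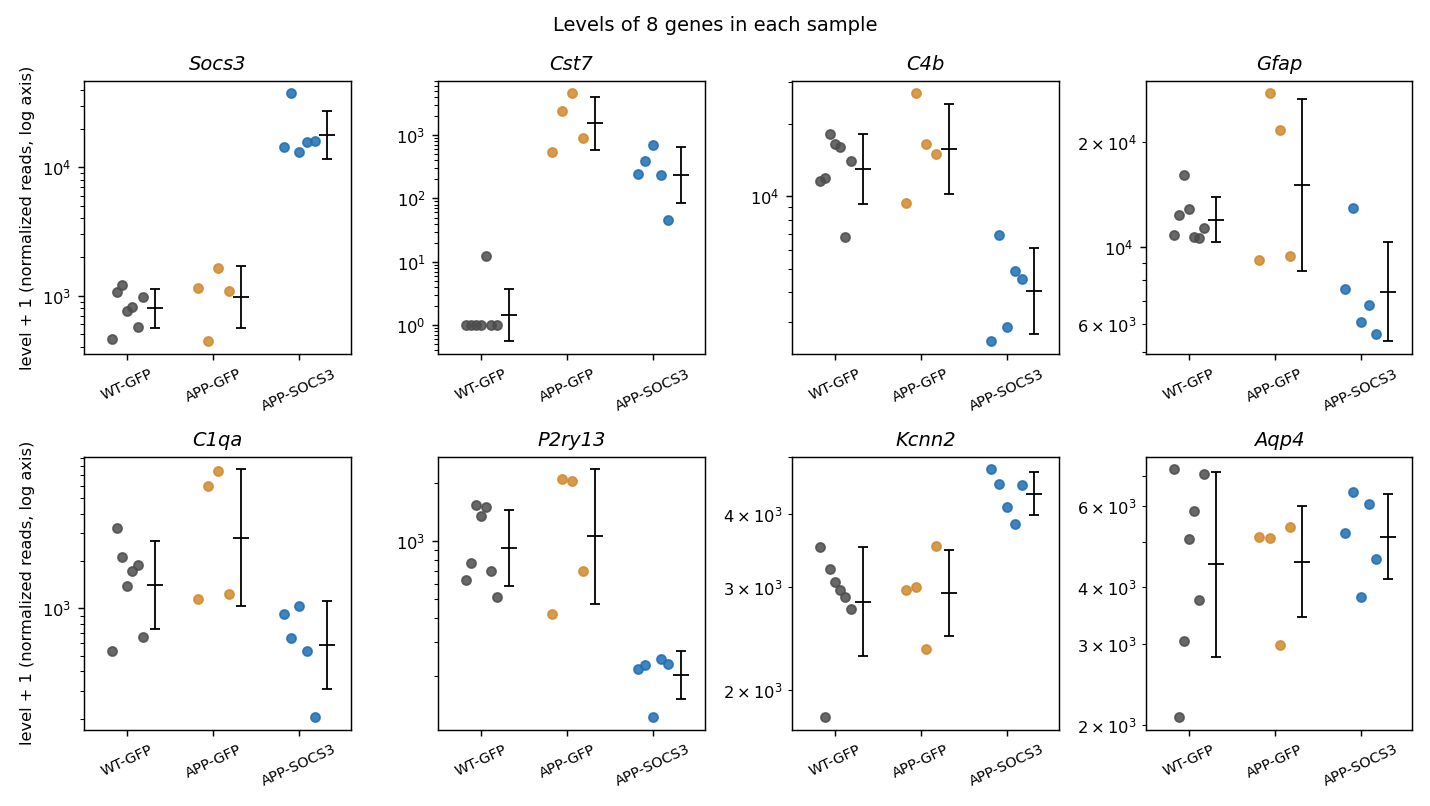
Normalized level + 1 (log axis) of 8 genes in each WT-GFP, APP-GFP and APP-SOCS3 sample (points; bars are the mean ± SD of log2 values). Socs3 and Kcnn2 of APP-SOCS3 samples lie above all WT-GFP samples, Cst7 of APP-SOCS3 samples lies above all WT-GFP samples, P2ry13 of APP-SOCS3 samples lies below all WT-GFP samples, and Aqp4 overlaps between groups.

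STAT3 target genes were lower in 3 of 17 tested members and higher in none, with a median log2 fold change of -0.23. *Gfap* levels were 7580, 12887, 6077, 6804 and 5605 in APP-SOCS3 samples and 10570 to 16032 (median 11308) in WT-GFP samples. APP-SOCS3 2, the sample with the highest *Socs3* level, had a *Gfap* level within the range of WT-GFP samples, and the other 4 samples were below all WT-GFP samples. *Gfap* fell by 0.68 ± 0.19 on the log2 scale (SE; limma adjusted p = 0.364; exact permutation p = 0.0177), from a mean of 12064 ± 1946 (SD, n = 7) to 7791 ± 2945 (SD, n = 5). APP-GFP samples had *Gfap* levels of 9125, 27460, 21597 and 9425 (mean 16902), so APP-GFP 1 and 4 were below all WT-GFP samples. The mean in GFP- cells was 861. Without APP-SOCS3 5 the fold change was below 1.5, at -0.58 on the log2 scale. *Gfap* was not called with upper quartile scaling or with the number of genes detected, microglial or endothelial markers as a covariate.

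*Cebpb*, a transcription factor of inflammatory responses, fell by 1.16 ± 0.34 (limma adjusted p = 0.443), from 1003 ± 591 to 398 ± 60. The *Cebpb* interval holds exons of *Tmem189*. *Mcl1*, an inhibitor of apoptosis, was called lower (1205 ± 549 against 1851 ± 565), and the call was lost on leaving out any of 8 samples, with log2 fold changes of -0.69 to -0.45. In GFP- cells, levels were 9229 to 12471 for *Cebpb* and 13326 to 20978 for *Mcl1*, above all astrocyte samples. Beside 61.0% of all genes tested, 16 of 17 STAT3 target genes had a higher mean in GFP- cells than in APP-GFP astrocytes. The part of other cell types in these falls was not tested. Without APP-SOCS3 5, 1 STAT3 target gene was called lower. With the mean log2 level of microglial or endothelial markers as a covariate, 0 of 17 STAT3 target genes were called lower.

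Pan reactive astrocyte genes, which are induced in several models of reactivity, were called lower in 3 of 11 tested members (*Gfap*, *Hspb1* and *S1pr3*) and higher in 1 (*Cd44*), with a median log2 fold change of -0.53. *S1pr3*, a receptor of sphingosine 1-phosphate, had levels of 83.9, 144, 27.0, 343 and 258 in APP-SOCS3 samples and 341 to 1300 (median 1191) in WT-GFP samples. The lowest WT-GFP and the highest APP-SOCS3 sample had nearly equal levels. *S1pr3* fell by 2.95 ± 0.55 on the log2 scale (SE; limma adjusted p = 0.103; exact permutation p = 0.00505), and its mean level in GFP- cells was 10661. *Cd44*, an adhesion receptor chosen after its values were seen, was listed at 41.0 ± 37.1 against 12.1 ± 27.5, and its call was lost on leaving out any of 8 samples and with edgeR or DESeq2. Without WT-GFP 4 the WT-GFP mean of *Cd44* was 1.88. The intermediate filament gene *Vim* (3878 ± 916 against 4445 ± 1922) and *Serpina3n*, which encodes a secreted protease inhibitor (288 ± 136 against 317 ± 193), were not called.

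A1 reactive astrocyte genes, defined in a model of neuroinflammation, were called lower in 4 of 12 tested members (*Serping1*, *Srgn*, *Fbln5* and *H2-D1*), with a median of -0.31. *Serping1*, an inhibitor of the first complement proteases, fell by 1.85 ± 0.47 (limma adjusted p = 0.307), from 506 ± 207 to 142 ± 69.5. *Srgn*, a proteoglycan of secretory granules, had 18.4 ± 11.1 against 87.5 ± 75.6 without overlap between the groups. *Fbln5*, a protein of elastic fibres, had 479 ± 290 against 847 ± 256, and its call was lost without APP-SOCS3 1 or 5, with log2 fold changes of -0.96 and -0.63. Without APP-SOCS3 5, 2 A1 genes were called lower. A2 reactive astrocyte genes, defined after ischemia, were called lower in 2 of 7 tested members, with a median of 0.11 (-0.19 with edgeR). They were *Tm4sf1*, a membrane protein (942 ± 299 against 2743 ± 949, no overlap), and *Cd14*, a co-receptor of bacterial lipopolysaccharide (264 ± 57 against 609 ± 222). With microglial or endothelial markers as a covariate, no A1 gene was called. The part of microglial and vascular RNA in these lists was not tested.

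The complement system tags synapses and amyloid for removal, and its early components are made by astrocytes (C4) and microglia (C1q). Of 18 complement components and regulators tested, 6 were called lower and none higher, with a median log2 fold change of -0.69. *C4b* levels were 2488, 6886, 2860, 4870 and 4531 in APP-SOCS3 samples and 6754 to 18212 (median 13975) in WT-GFP samples. APP-SOCS3 2 was just above the lowest WT-GFP sample, and the other 4 samples were below all of them. *C4b* fell by 1.68 ± 0.28 on the log2 scale, a 3.13-fold lower mean (SE; limma adjusted p = 0.0545; exact permutation p = 0.00505). *C4b* was called lower in each of the 27 alternatives that kept the thresholds of p and fold change. Its mean level was 16869 in APP-GFP astrocytes and 1734 in GFP- cells, so that GFP- cells were below astrocytes.

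The genes *C1qa*, *C1qb* and *C1qc* encode the chains of C1q. *C1qa* levels were 925, 651, 1038, 539 and 203 in APP-SOCS3 samples and 532 to 3249 (median 1740) in WT-GFP samples. The groups overlapped, and *C1qa* was called lower by 1.26 ± 0.48 on the log2 scale (SE; limma adjusted p = 0.767; exact permutation p = 0.048). *C1qb* (1832 ± 669 against 5068 ± 3276) and *C1qc* (1237 ± 392 against 3463 ± 2104), chosen after their values were seen, were called lower too. The calls of *C1qa*, without APP-SOCS3 5, and of *C1qb*, without APP-SOCS3 4 or 5, were lost, with log2 fold changes of -0.88 and -1.09 to -1.08. *C3ar1*, a receptor of a complement peptide, had 84.2 ± 78.4 against 542 ± 359 and was called lower, and its mean was 52.2 without APP-SOCS3 3. The entry shared by *C3* and *Mir6978* was listed at 22.4 against 49.7 and was not called. In GFP- cells, *C1qa*, *C1qb*, *C1qc*, *C3ar1* and *Serping1* had higher levels than in astrocytes. With microglial markers as a covariate, 1 complement gene was called lower and the median was 0.28, and with endothelial markers 1 was called lower and the median was 0.11.

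**Figure D3:**
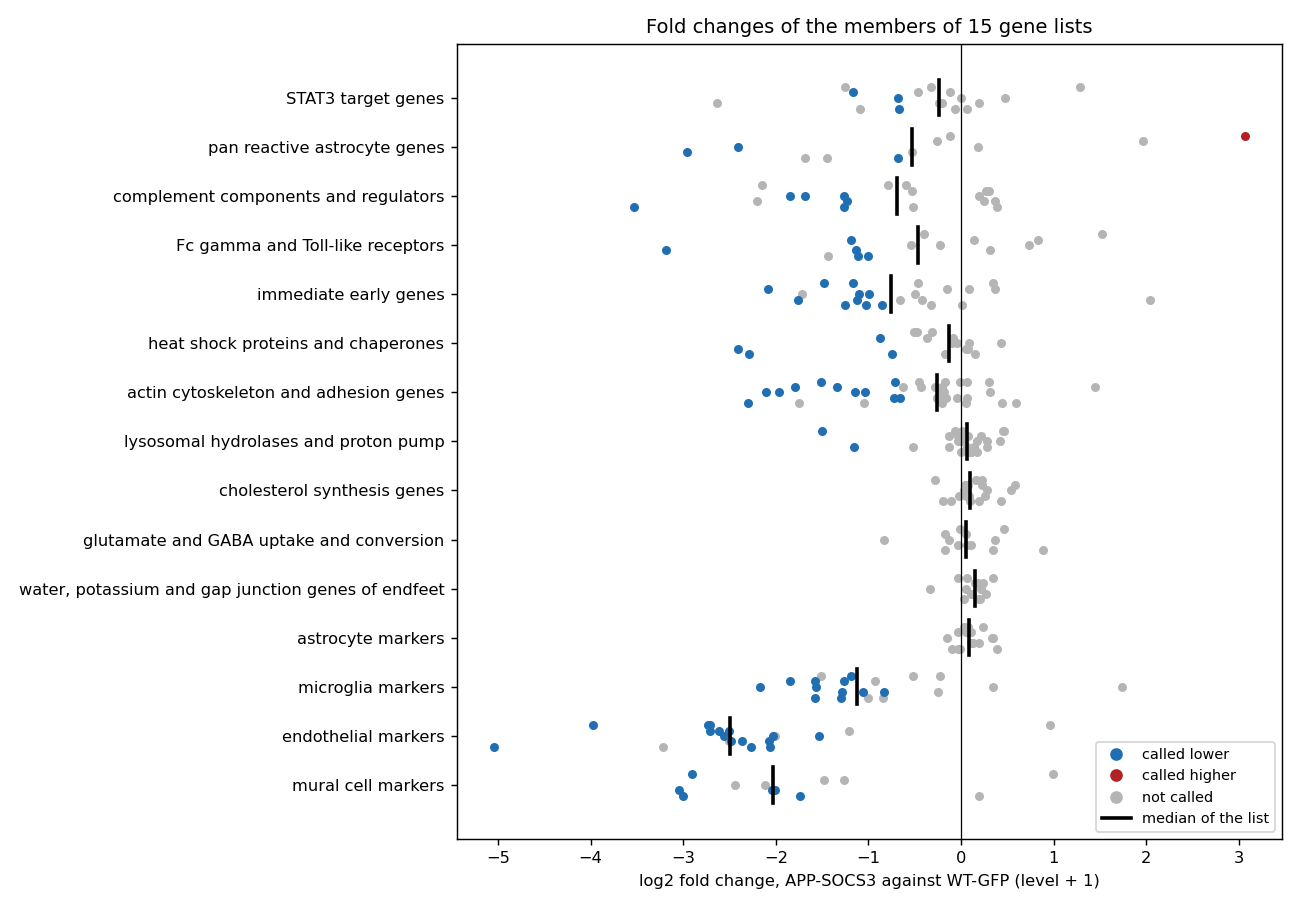
Log2 fold change, APP-SOCS3 minus WT-GFP, of each tested member of 15 gene lists (points; blue called lower, red called higher, grey not called; black bars are list medians). Microglial, endothelial and immediate early genes lie mostly below 0, with medians of -1.12, -2.49 and -0.75. The medians of endfoot and glutamate uptake genes are 0.15 and 0.06, with members from -0.33 to 0.35 and from -0.83 to 0.89.

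Microglial markers were called lower in 11 of 20 genes, with a median log2 fold change of -1.12. *P2ry13*, a purinergic receptor of microglia, had levels of 219, 227, 122, 245 and 231 in APP-SOCS3 samples and 515 to 1544 (median 774) in WT-GFP samples. All APP-SOCS3 samples were below all WT-GFP samples. *P2ry13* fell by 2.17 ± 0.33 on the log2 scale, a 4.8-fold lower mean (SE; limma adjusted p = 0.0498; exact permutation p = 0.00253), and it was the 1 gene that was lower with an adjusted p under 0.05. *Tmem119* (701 ± 195 against 2435 ± 1300), *Cx3cr1* (275 ± 87 against 757 ± 375) and *P2ry12* (1496 ± 182 against 2888 ± 1212), further markers of homeostatic microglia chosen after their values were seen, were called lower, while groups overlapped. The *P2ry12* interval holds exons of *Med12l*. In GFP- cells, mean levels were 7362 for *P2ry13*, 13674 for *Tmem119*, 7109 for *Cx3cr1* and 17149 for *P2ry12*.

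Genes by which innate immune cells sense their surroundings were also lower. Of 14 Fc gamma and Toll-like receptor genes tested, 5 were called lower and none higher (median -0.47). *Myd88*, an adaptor of Toll-like receptors whose interval holds exons of *Acaa1a*, fell by 1.00 ± 0.36 (limma adjusted p = 0.724), from 432 ± 297 to 190 ± 32.1, without overlap. *Fcer1g* (183 ± 84.1 against 417 ± 204) and *Fcgr3* (196 ± 96.8 against 487 ± 266, chosen after its values were seen), subunits of Fc receptors, were called lower, and their calls were lost on leaving out any of 6 and 8 samples. Without WT-GFP 2, 2 genes of this list were called lower, and with microglial or endothelial markers as a covariate none was.

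Cytokines and their NF-kB feedback genes were called lower in 2 of 16 (median -0.28). *Nfkbiz*, a nuclear regulator of NF-kB, fell by 1.15 ± 0.38, from 663 ± 333 to 283 ± 106. *Il1a*, a cytokine mainly made by microglia, had 498 ± 260 against 1331 ± 800, and its call was lost without APP-SOCS3 3 or 4 (-1.26 and -0.98). Of 15 chemokines, *Cxcl12* was called lower (201 ± 133 against 1101 ± 777), and its mean in GFP- cells was 18224. *Ccl2*, a chemokine that attracts monocytes, had 31.6 ± 13.9 against 97.8 ± 57.6 and was not called. Of 20 genes of antigen presentation, *H2-D1* alone was called lower (3995 ± 1056 against 6338 ± 2884), and this call was lost on leaving out any of 8 samples. Of 25 interferon-stimulated genes, 2 were called lower (median -0.05). They were *Ifitm3* (987 ± 198 against 1894 ± 1037), whose call was lost without APP-SOCS3 5 (-0.70), and *Irf8* (65.7 ± 38.8 against 194 ± 126), whose call was lost on leaving out any of 5 samples. *Cxcl12* and *H2-D1* were chosen after their values were seen.

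Lysosomal hydrolases and proton pump subunits were called lower in 2 of 28 (median 0.07). These were the cathepsins *Ctsh* (434 ± 151 against 1399 ± 899) and *Ctss* (1285 ± 383 against 3101 ± 1467), with log2 fold changes of -1.50 ± 0.42 and -1.15 ± 0.36. The cathepsin gene *Ctsd*, chosen after its values were seen, had 33161 ± 5656 against 33187 ± 5852 and was not called. Of 21 genes of disease-associated microglia, the state that microglia take around amyloid plaques, *Ctss* and *Spp1* were called lower and *Cst7* higher. *Spp1*, which encodes osteopontin, had 93.8, 355, 18, 0 and 0 against 95.4 to 664 (median 194). Its mean was 28 without APP-SOCS3 2, and edgeR and DESeq2 did not call it.

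*Cst7*, which encodes cystatin F, was the 1 disease-associated microglia gene called higher. The median log2 fold change of these 21 genes was 0.08, beside 0.19 of all genes tested, and 13 of them were above 0. *Cst7* levels were 238, 388, 694, 229 and 43.9 in APP-SOCS3 samples. In WT-GFP samples it was at 0 in 6 of 7 samples and at 11.2 in WT-GFP 5. The groups did not overlap, and *Cst7* rose by 7.34 ± 0.95 on the log2 scale (SE; limma adjusted p = 0.0244; exact permutation p = 0.00253). Its mean level was 2094 (544 to 4526) in APP-GFP astrocytes, and 4 of the 5 APP-SOCS3 samples were below the lowest APP-GFP sample. In GFP- cells of WT-GFP mice the mean was 88.5. Over the same samples *P2ry13*, *Tmem119* and *Cx3cr1* were lower than in WT-GFP astrocytes.

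Other genes of plaque-associated microglia were higher in APP-GFP means than in both other groups, but APP-GFP samples differed. Microglial markers summed to 16258.2 and 24173.2 in APP-GFP 1 and 4 and to 65505.8 and 80010.5 in APP-GFP 2 and 3. APP-GFP and APP-SOCS3 astrocytes are compared here with the same WT-GFP samples, so their values are only set side by side. *Trem2*, a lipid receptor of microglia, had 222 ± 110 in APP-SOCS3, 444 ± 275 in WT-GFP and 1761 in APP-GFP astrocytes and was not called against WT-GFP. Its signalling partner *Tyrobp* had 523 ± 329, 583 ± 340 and 2366. The chemokine *Ccl6* had 161 ± 122, 48.7 ± 37.4 and 720, with no call. *Cd68*, a lysosomal membrane protein of phagocytes, had 440 ± 211, 601 ± 460 and 2172, and *Lyz2*, a lysozyme, had 644 ± 486, 679 ± 523 and 3756. The chemokines *Ccl3* (69.9 ± 19.8, 99.7 ± 70.7 and 209) and *Ccl4* (495 ± 123, 618 ± 283 and 1617) had the same order of means, with APP-GFP above both groups. In APP-GFP 1, *Trem2* (294), *Ccl3* (65.2) and *Ccl4* (454) were below the WT-GFP means. *Tyrobp* (670), *Ccl6* (197), *Cd68* (654) and *Lyz2* (1756) were above them in that sample. *Tyrobp*, *Cd68*, *Lyz2*, *Ccl3* and *Ccl4* were chosen after their values were seen, and none was called against WT-GFP. *App* itself, a form of which is among the transgenes, had 3153, 6011, 2633, 4899 and 2715 in APP-SOCS3 samples, 1735 to 5624 (median 4831) in WT-GFP and a mean of 8215 in APP-GFP samples. *App* was not called against WT-GFP (log2 fold change -0.18).

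Endothelial markers were called lower in 15 of 20 genes (median log2 fold change -2.49) and mural cell markers in 6 of 12 (median -2.03), with none higher. *Flt1*, a receptor of vascular endothelial growth factor, had levels of 560, 206, 182, 246 and 105 in APP-SOCS3 samples and 708 to 3440 (median 1560) in WT-GFP samples. The groups did not overlap, and *Flt1* fell by 2.71 ± 0.44 on the log2 scale, a 6.42-fold lower mean (SE; limma adjusted p = 0.0545; exact permutation p = 0.00253). *Slco1a4*, an organic anion transporter of the blood-brain barrier, fell by 2.73 ± 0.44, from 1865 ± 574 to 355 ± 316, also without overlap. *Cldn5* (785 ± 663 against 4401 ± 4415), a tight junction protein, *Rgs5* (209 ± 145 against 1060 ± 1186), a marker of pericytes, and *Acta2* (976 ± 250 against 4452 ± 5205), the actin of smooth muscle, were called lower and were chosen after their values were seen. The WT-GFP means of *Cldn5*, *Rgs5* and *Acta2* were 2832, 633 and 2501 without WT-GFP 2. Without APP-SOCS3 1, APP-SOCS3 means were 496 for *Cldn5* and 223 for *Slco1a4*. The call of *Rgs5* was lost without WT-GFP 2 or 4 (-2.65 and -2.90). Mean levels in GFP- cells were 27295 for *Flt1*, 31462 for *Slco1a4* and 40942 for *Cldn5*. Markers of neurons (11 tested), of border macrophages (8) and of choroid plexus (8) had no call with limma, and none had an unadjusted p of at most 0.05. Border macrophage markers were called lower in 1 gene with edgeR and 2 with DESeq2, and 2 markers each of border macrophages and choroid plexus were called lower among the 9 deeper samples. With limma on all samples, 2 markers of oligodendrocyte precursor cells and 2 of oligodendrocytes were called lower.

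The other genes with the smallest p among lower genes had levels of the same pattern. *Grap*, an adaptor of receptor signalling, had 278, 145, 139, 68.6 and 150 in APP-SOCS3 samples and 528 to 2412 (median 690) in WT-GFP samples, a 6.74-fold lower mean (limma adjusted p = 0.0545). *Apod*, a lipid carrier, had 771, 364, 672, 285 and 70.3 against 868 to 5992 (median 2889), a 7.01-fold lower mean (limma adjusted p = 0.103). *Slc40a1*, the iron exporter ferroportin, had 288, 357, 231, 181 and 245 against 384 to 1217 (median 795). None of these overlapped between groups. Of 262 solute carriers tested, 13 were called lower and 6 higher, or 4.96% and 2.29% beside 2.02% and 3.19% of all genes tested. Their median was 0.19 (0.01 with edgeR), and edgeR called 17 lower and 2 higher. *Slc22a8*, an organic anion transporter, fell by 2.23 ± 0.43, from 1212 ± 631 to 239 ± 99.9.

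*Pdcd4*, a repressor of translation, was lower with a different pattern. Its levels were 226, 283, 342, 420 and 374 in APP-SOCS3 samples and 633 to 958 (median 738) in WT-GFP samples, without overlap. *Pdcd4* fell by 1.23 ± 0.22 on the log2 scale (SE; limma adjusted p = 0.0954; exact permutation p = 0.00253), and its mean was 456 in GFP- cells. APP-GFP samples had 710, 0.949, 575 and 744, and *Pdcd4* was not called in a fit of all 16 GFP+ samples, which share 1 estimate of the spread. The *Pdcd4* interval holds exons of *Bbip1*, from which reads cannot be told apart. *C4b*, *Gfap* and *Pdcd4* were among 20 lower genes whose mean was not higher in GFP- cells than in APP-GFP astrocytes. Of the 464 lower genes, 444 (95.7%) were higher in GFP- cells than in APP-GFP astrocytes, beside 61.0% of all genes tested and 56.6% of the higher genes. Others of the 20 were *Lrrc48* (290 ± 98.4 against 577 ± 201), *Ccdc181* (423 ± 125 against 731 ± 293), *Fam166b* (99.0 ± 60.0 against 320 ± 164) and *Vps33b* (711 ± 313 against 1013 ± 147), chosen after their values were seen. The calls of *Ccdc181*, without APP-SOCS3 1 or 2 (-0.67 and -0.64), and of *Vps33b*, on leaving out any of 6 samples, were lost, and the interval of *Fam166b* holds exons of *Rusc2*.

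**Figure D4:**
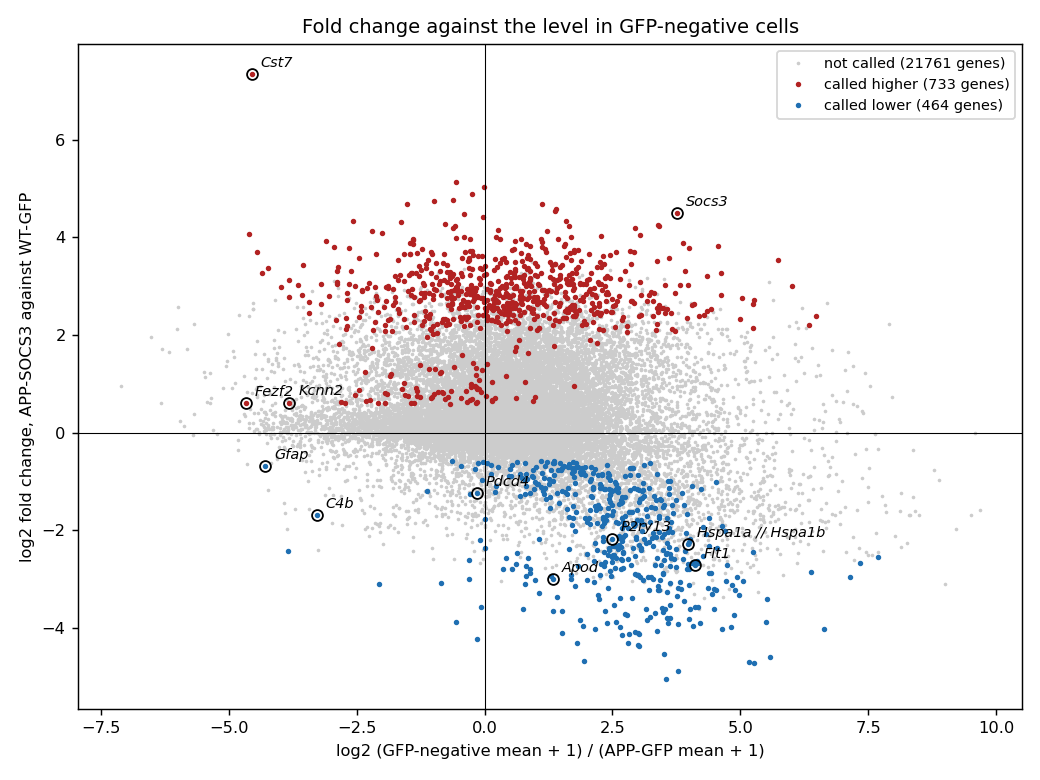
Log2 fold change, APP-SOCS3 minus WT-GFP (y axis), against the log2 ratio of mean levels in GFP-negative cells over APP-GFP astrocytes (x axis), for all genes tested (grey not called, red 733 called higher, blue 464 called lower). Most genes called lower lie to the right of 0, and C4b, Gfap and Pdcd4 lie to the left.

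Immediate early genes are transcribed within minutes of a stimulus, before new proteins are made. Of 22 tested, 10 were called lower and none higher (median -0.75). *Btg2*, which encodes an antiproliferative protein, had 1839, 2288, 1860, 2018 and 2322 in APP-SOCS3 samples and 2430 to 4811 (median 4126) in WT-GFP samples, without overlap. *Btg2* fell by 0.85 ± 0.18 on the log2 scale (SE; limma adjusted p = 0.178; exact permutation p = 0.00253). The transcription factor genes *Egr1* (1957 ± 733 against 4351 ± 1792) and *Klf2* (50.1 ± 22.8 against 227 ± 170) were called lower. *Zfp36*, which destabilizes cytokine transcripts and is listed with the zinc finger genes, had 866 ± 146 against 1897 ± 949. *Atf3* (781 ± 343 against 2619 ± 1474) was called lower, while *Fos* (9515 ± 3326 against 12823 ± 7190) was not, and both were chosen after their values were seen. In GFP- cells, mean levels were 43943 for *Btg2*, 77475 for *Egr1* and 126538 for *Fos*. With upper quartile scaling 1 immediate early gene was called lower, and with microglial or endothelial markers as a covariate 2 were. Of 20 promoters of this list, 2 held a cAMP response element (TGACGTCA, found in 1.79% of all promoters), those of *Btg2* and *Dusp1*.

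Heat shock proteins and chaperones were called lower in 4 of 18 tested entries and higher in none (median -0.13). The entry shared by *Hspa1a* and *Hspa1b*, near-identical inducible chaperones, had 1208, 899, 857, 1104 and 321 in APP-SOCS3 samples and 1449 to 10446 (median 4365) in WT-GFP samples. All APP-SOCS3 samples were below all WT-GFP samples. This entry fell by 2.29 ± 0.44 on the log2 scale (SE; limma adjusted p = 0.114; exact permutation p = 0.00253). *Hspb1*, a small heat shock protein, fell by 2.41 ± 0.59, from 1211 ± 1344 to 184 ± 139 (limma adjusted p = 0.27). Without WT-GFP 2 the WT-GFP mean of *Hspb1* was 726. *Hsph1* (812 ± 380 against 1387 ± 427) was called lower, and its call was lost without APP-SOCS3 3 or 5 (-0.59 and -0.73). Without APP-SOCS3 3, 2 entries of this list were called lower. Of the 5 lower genes with a promoter sequence, 4 held the heat shock motif shown above for *Hspa1b* and *Hspb1*, beside 9 of 14 in the list. *Hspa1a* and *Hspa1b* count as 2 of these genes but share 1 entry and 1 call. In GFP- cells, mean levels were 92836 for the entry of *Hspa1a* and *Hspa1b* and 13276 for *Hspb1*, and with endothelial markers as a covariate 1 entry was called lower.

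Of 35 genes of the actin cytoskeleton and adhesion, 11 were called lower and none higher (median -0.26). *Lcp1*, an actin-bundling protein of leukocytes, had 106, 40.9, 42.0, 27.4 and 60.6 in APP-SOCS3 samples and 144 to 378 (median 297) in WT-GFP samples, without overlap. *Lcp1* fell by 2.30 ± 0.44 on the log2 scale (SE; limma adjusted p = 0.105; exact permutation p = 0.00253). *Tagln2*, an actin-binding protein, fell by 1.96 ± 0.45, from 1076 ± 791 to 238 ± 76.2. *Arpc1b*, a subunit of the complex that branches actin, had 520 ± 157 against 1240 ± 820 without overlap. Mean levels of *Lcp1*, *Tagln2* and *Arpc1b* were 3157, 7646 and 4883 in GFP- cells, and with microglial and endothelial markers as a covariate 3 and 1 genes of this list were called lower. Of 21 collagen, laminin and basement membrane genes, 3 were called lower (median -0.42). *Fn1*, fibronectin, whose interval holds exons of *Apol7d*, had 163 ± 140 against 851 ± 561, and its call was lost without APP-SOCS3 3 or 4 (-1.99 and -1.87). Without APP-SOCS3 3, 0 genes of that list were called. Of 27 genes of TGF-beta and BMP signalling, the endothelial receptor gene *Acvrl1* was called lower (74.4 ± 40.7 against 723 ± 561), and it was chosen after its values were seen.

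Of the 10 higher genes named for the smallest p, *Socs3* and *Cst7* are described above. *Me3*, a mitochondrial malic enzyme, had 1028, 996, 1469, 1360 and 1432 in APP-SOCS3 samples and 504 to 874 (median 722) in WT-GFP samples. The groups did not overlap, and *Me3* rose by 0.85 ± 0.21 on the log2 scale (SE; limma adjusted p = 0.239; exact permutation p = 0.00253). With endothelial markers as a covariate, *Me3* was not called (0.48). *Adrb1*, the beta-1 adrenergic receptor, had 1274, 840, 1236, 1064 and 918 against 442 to 701 (median 633). *Adrb1* rose by 0.79 ± 0.19 (SE; limma adjusted p = 0.239). *Kcnn2*, a calcium-activated potassium channel, had 4764, 4498, 4097, 3843 and 4476 against 1793 to 3499 (median 2956), and all APP-SOCS3 samples were above all WT-GFP samples. *Kcnn2* rose by 0.61 ± 0.16 (SE; limma adjusted p = 0.314), with a 1.51-fold higher mean. The fold change of *Kcnn2* was below 1.5 without WT-GFP 2 or APP-SOCS3 1 (0.50 and 0.58 on the log2 scale). It was also below 1.5 with sample quality weights (0.52) and among the 9 samples with at least 20000 genes detected (0.57). The same held with microglial (0.56) or endothelial (0.37) markers as a covariate. The intervals of *Me3* and *Kcnn2* hold exons of less studied non-coding genes, *A230065N10Rik* and *A330093E20Rik* among them.

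*Fezf2*, a transcription factor, had 1945, 1864, 2158, 2204 and 3195 in APP-SOCS3 samples and 970 to 1860 (median 1419) in WT-GFP samples. The groups did not overlap, with 1864 and 1860 as the nearest samples, and *Fezf2* rose by 0.60 ± 0.20 on the log2 scale (SE; limma adjusted p = 0.607). Its call was lost without WT-GFP 3, 5 or 6 or APP-SOCS3 5, with log2 fold changes of 0.47 to 0.58. Mean levels in APP-GFP astrocytes were 732 for *Me3*, 593 for *Adrb1*, 2955 for *Kcnn2* and 2061 for *Fezf2*. Mean levels in GFP- cells were 570, 300.0, 209 and 79.9 for the same genes, below those of astrocytes of both groups. *Col11a2*, a fibrillar collagen chain (3594 ± 628 against 1570 ± 1063), *Padi2*, a peptidylarginine deiminase (6057 ± 1675 against 3963 ± 1006), and *Adra2a*, an alpha-2 adrenergic receptor (1312 ± 317 against 781 ± 309), were called higher and were chosen after their values were seen. The calls of *Padi2*, on leaving out any of 5 samples (0.50 to 0.56), and of *Adra2a*, without APP-SOCS3 5 (0.72), were lost.

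Of 26 genes of the Notch and Wnt pathways, *Fzd2*, a Wnt receptor chosen after its values were seen, was called higher (3842 ± 1058 against 2414 ± 312). Its call was lost without WT-GFP 4 or APP-SOCS3 2 or 4 (0.51 to 0.58). Of 18 circadian clock genes, 2 were called higher, which were *Per1* (126 ± 49.5 against 43.6 ± 28.9) and *Arntl* (1183 ± 285 against 738 ± 456). The call of *Per1* was lost without APP-SOCS3 4 (1.64), and that of *Arntl* on leaving out any of 6 samples. *Fcho1*, an adaptor of endocytosis, had 106 ± 38.1 against 18.7 ± 22.7, and *Stard9*, a kinesin, had 187 ± 95.3 against 39.9 ± 29.7, both without overlap between groups. The non-coding genes *Gm15743* (455 ± 70.7 against 285 ± 27.5) and *Gm17167* (209 ± 39.2 against 55.2 ± 69.5) did not overlap either. Neither edgeR nor DESeq2 called *Gm17167*, edgeR did not call *Fcho1*, and the WT-GFP mean of *Fcho1* was 11.5 without WT-GFP 7. Intervals of *Stard9* and *Gm15743* hold exons of *Cdan1* and *Bdh1*, and the call of *Gm15743* was lost without APP-SOCS3 4 (0.58).

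*Rgr*, which encodes a retinal opsin and was among the 7 genes with an adjusted p under 0.05, had 26.5, 33.5, 52.0, 5.88 and 63.3 in APP-SOCS3 samples and 0 in each WT-GFP sample. The mean was at least 11.9-fold higher than a floor of 3 reads per WT-GFP library (limma adjusted p = 0.0498). Of the remaining genes past this threshold, 3 have no symbol. They lie at chr15:72689005-72692738 within *Trappc9* (44.8 ± 36 against 0, at least 14.8-fold higher), at chr11:16955186-16958504 (32.1 ± 23.5 against 0, at least 10.6-fold higher) and at chr8:35611698-35614076 within *Mfhas1* (51.2 ± 23.2 against 0.873 ± 1.62). Mean APP-GFP levels of *Rgr* were 8.72, and those of the unnamed genes were 4.53, 9.15 and 40.4.

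Genes called higher were mostly at low levels. The median level of the 733 higher genes was 19.5, against 238 for lower genes and 118 for all genes tested. Of higher genes, 458 (62.5%) had no symbol, beside 31.7% of all genes tested. At least 1 WT-GFP sample was at or under 3 reads for 650 (88.7%) of the higher genes and for 100 (21.6%) of the lower genes. Of the 733 higher genes, 262 were also called higher with edgeR, 255 with DESeq2 and 221 in a fit of the 9 samples with at least 20000 genes detected. Of the 464 lower genes, 386, 435 and 376 were also called lower in these fits. Beside 3.19% higher and 2.02% lower calls of all genes tested, 8 of 334 tested Zfp zinc finger genes were called higher and 6 lower (median 0.45). With edgeR, 1 of the Zfp genes was called higher and 8 lower, with a median of 0.05. Of these, *Zfp738* (202 ± 95.8 against 396 ± 92.6) and *Zfp292* (30.0 ± 33.1 against 101 ± 47.3) were called lower, with a mean of 15.9 for *Zfp292* without APP-SOCS3 4. Of 82 cytosolic ribosomal protein genes, *Rpl3l* alone was called higher (39.0 ± 10.7 against 14.0 ± 20.2), and of 14 olfactory and vomeronasal receptor genes, *Olfr750* alone was (34.8 ± 25.4 against 5.09 ± 9.59). Without WT-GFP 6 the WT-GFP mean of *Rpl3l* was 6.8, and without WT-GFP 7 that of *Olfr750* was 1.8. Neither gene was called with edgeR or DESeq2, their calls were lost on leaving out any of 4 and 6 samples, and both were chosen after their values were seen.

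Genes of many homeostatic astrocyte functions had no called members. Astrocytes clear glutamate from synapses, and none of 13 genes of glutamate and GABA uptake and conversion was called (median 0.06). *Slc1a3*, a glutamate transporter, had 121148 ± 44358 in APP-SOCS3 and 130786 ± 55645 in WT-GFP astrocytes. *Slc1a2*, the main glutamate transporter, had 23977, 30253, 22094, 22498 and 21280 against 14675 to 22011 (median 19383), and its fold change was below 1.5 (0.35 ± 0.13 on the log2 scale; exact permutation p = 0.0101). *Slc1a2* was chosen after its values were seen. The entry of *Glul*, glutamine synthetase, and *Mir8114* had 50557 ± 7741 against 56502 ± 14870.

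At endfeet around vessels, astrocytes handle water and potassium, and none of 15 such genes was called (median 0.15). *Aqp4*, the water channel, had 5235, 6450, 3803, 6078 and 4608 in APP-SOCS3 samples and 2076 to 7231 (median 5086) in WT-GFP samples, which overlapped entirely. *Gja1*, the main gap junction connexin of astrocytes, had 149208 ± 24856 against 132036 ± 45529. Of 23 glutamate and GABA receptor genes limma called none (median 0.35), while edgeR called 2 and DESeq2 3 lower, with an edgeR median of -0.20. With endothelial markers as a covariate 4 were called lower and the median was -0.97. The receptor genes with the highest mean levels were not called, with *Grin2c* at 8734 ± 1388 against 6478 ± 2000 and *Grm3* at 8876 ± 1712 against 8105 ± 2315.

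None of 21 genes of astrocytic phagocytosis and amyloid handling was called (median 0.12). *Apoe*, the main lipid carrier of the brain, had 1082770 ± 208595 against 1072520 ± 386251, and *Clu*, clusterin, had 460630 ± 64024 against 404691 ± 63004. Among 21 cholesterol synthesis genes (median 0.10), *Msmo1* had 15871 ± 5213 against 15187 ± 4263 and *Sqle* had 13053 ± 4686 against 12455 ± 3177. Among 19 glutathione and Nrf2 genes (median 0.04), *Prdx6* had 139984 ± 20152 against 133450 ± 20732 and *Gstm1* had 78112 ± 7117 against 86601 ± 13748. Among 11 metallothionein and S100 genes (median 0.05), *Mt1* had 50857 ± 14483 against 45788 ± 21048 and *Mt3* had 16289 ± 3886 against 17179 ± 8396. Of 21 genes of glycogen, glycolysis and lactate, *Gbe1*, the glycogen branching enzyme, was called lower (592 ± 96.7 against 920 ± 243), and this call was lost on leaving out any of 4 samples (-0.56 to -0.52). *Gbe1* was chosen after its values were seen.

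Synaptogenic factors released by astrocytes had no call among 19 genes (median 0.16), with *Sparcl1* at 278127 ± 43963 against 318923 ± 49945 and *Cspg5* at 64380 ± 13152 against 54259 ± 8077. None of 76 respiratory chain genes was called (median -0.03), with *Atp5b* at 42625 ± 8089 against 44834 ± 7272 and *Atp5a1* at 22524 ± 4092 against 23460 ± 2585. Autophagy genes (23 tested, median 0.10) had no call, with *Map1lc3b* at 22956 ± 2132 against 24415 ± 4813 and *Sqstm1* at 7504 ± 1285 against 7662 ± 764. None of 29 DNA repair genes was called (median 0.41, and -0.02 with edgeR), with *Ercc1* at 1340 ± 212 against 1280 ± 300 and *Xrcc6* at 1283 ± 256 against 1309 ± 408. Cell cycle genes (17 tested, median 0.01) had no call with limma, edgeR or DESeq2, and 1 higher and 2 lower calls among the 9 deeper samples. Genes of motile cilia (23 tested, median 0.00) had no call with limma, 1 lower with DESeq2 and 5 lower among the 9 deeper samples, with medians of -0.43 with edgeR and -0.77 in the deeper samples. *Pcna*, the sliding clamp of replication, had 1231 ± 179 against 1248 ± 328. The entry shared by *Plk1* and *Dctn5* had 3513 ± 315 against 3765 ± 1186, and the cilium genes *Rfx3* (763 ± 235 against 810 ± 360) and *Dnaic1* (721 ± 134 against 917 ± 286) were not called. Intervals of *Atp5a1*, *Map1lc3b*, *Sqstm1*, *Ercc1*, *Xrcc6* and *Dnaic1* hold exons of other named genes (*Haus1*, *Zcchc14*, *Mrnip*, *Cd3eap*, *Desi1* and *Enho*). A fold change under 1.5 or a p above 0.05 does not show that levels were equal.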

How the data were processed

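GFP+ astrocytes and GFP- cells were sorted from mouse hippocampus, and mRNA was sequenced. Per the labels and the study's methods, the authors mapped paired reads to mm10 with STAR 2.4.0, counted reads on constitutive gene regions and normalized the counts with DESeq2 (FastQC, Picard and SAMtools are named in the submitters' processing notes). The deposited normalized signal is reads divided by 1 size factor per sample. Of 60567 entries, 34671 have no symbol, 638 have several and 21293 are at 0 in every sample. In each of the 19 columns 100% of values were whole multiples of the smallest value, to within 1% of a read, and these multiples were taken as reads; in 17 columns this could be told from rounding, while in the others 1 read is worth nearly 1. Every column was mapped to a sample.

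The 5 APP-SOCS3 and 7 WT-GFP samples were compared with limma 3.58.1 in R 4.3.3 on log2(level + 1) with a mean-variance trend and Benjamini-Hochberg adjustment, so fold changes of genes with samples near 0 depend on the pseudocount and can lie above or below those of count models. The thresholds of p and fold change follow the study's methods. Single genes were also tested with an exact 2-sided permutation test over 792 splits. Count models on whole reads were run as alternatives: edgeR 4.0.16, which called 1203 genes (1 with an adjusted p under 0.05), and DESeq2 1.42.0, the tool of the study, which called 1164 (181 with an adjusted p under 0.05). Genes detected and mean log2 marker levels were used as covariates. Microglial and endothelial marker levels differed between the groups, so fits with them cannot tell group and marker level apart. A fit of the samples with at least 20000 genes detected was chosen after seeing the data. The fit was also run on simulated counts in which 200 genes with a mean of at least 100 were changed. All genes had the same setting of the spread there. That run does not cover changes of genes at low levels or samples that differ in cell content. Intervals in mm10 are those of the deposited table, and promoters are from RefSeq.

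Named genes were *Socs3*, *Stat3*, *Gfap*, *Vim*, *Serpina3n*, *C4b*, *C3*, *C1qa*, *Ccl2*, *Ccl6*, *Cst7*, *Trem2*, *App* and *Aqp4*, every gene with an adjusted p under 0.05, and the 10 higher and 10 lower genes with the smallest p among called genes with 1 symbol, a mean of at least 100 in either group and groups that did not overlap. From each list with at least 2 called members, up to 3 with the smallest p and a mean of at least 50 were named, and from each list with none called the 2 with the highest mean. Some genes that the rule names are not reported here. Others are said to be chosen after their values were seen. Genes, lists and members were chosen with earlier results of these data known.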

Additional observations from a re-analysis of the deposited data

Results flagged for a closer look

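In 30 of 287 groups of values tested, 1 sample lay far from the rest of its own group by Dixon's criterion, of which 17 were WT-GFP and 13 APP-SOCS3 groups. Chance flags about 1 in 20 groups. WT-GFP 2 was the sample in 9 groups, APP-SOCS3 5 in 6, APP-SOCS3 3 and WT-GFP 1 in 4 each, APP-SOCS3 2 in 3 and WT-GFP 3 and 5 in 2 each.

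APP-SOCS3 2 had the highest *Socs3* level (37750), the highest sum of astrocyte markers (1346390) and a low *Fam166b* level (3.72). In APP-SOCS3 3, levels were low for *P2ry13* (122), *Stat6* (22.0), *Tm4sf1* (454) and *Tagln2* (110). APP-SOCS3 5 had low levels of the entry of *Hspa1a* and *Hspa1b* (321), *Klf2* (12.3) and *Trem2* (30.8) and was at 0 for *C3ar1*, *Rgs5* and *Olfr750*.

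WT-GFP 2 had high levels of *Acta2* (16159), *Arpc1b* (3061), *Srgn* (256) and *Myd88* (1087), low levels of *Kcnn2* (1793), *Pias1* (472) and *Serpina3n* (22.7), and 0 for *Ccl2* and *Il6st*. In WT-GFP 1, levels of *S1pr3* (341), *Atf3* (290), *App* (1735) and *Rfx3* (198) were the lowest. WT-GFP 3 was at 0 for *Ccl6* and *Lyz2*. WT-GFP 5 had the 1 *Cst7* level above 0 (11.2) and the lowest *Adrb1* level (442).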

How the results depend on the processing

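Of 88 named genes called, 5 changed sign under an alternative, and of 46 not called, 36 did, as did 41 of 48 list medians. In values, calls of named genes were lost in 430 and gained in 18. The number of genes called was 441 with a minimum mean level of 100, 2589 with sample quality weights, 7 at an adjusted p under 0.05, and 904 to 1435 on leaving out 1 sample. Genes called higher numbered 117 with the minimum of 100, 1330 with upper quartile scaling, 1207 with quality weights, 441 with edgeR, 340 with DESeq2, 6 at an adjusted p under 0.05, 300 with genes detected as a covariate, 410 among the 9 samples with at least 20000 genes detected, and 486 (without APP-SOCS3 4) to 1006 on leaving out 1 sample. Genes called lower numbered 258 with upper quartile scaling, 1382 with quality weights, 762 with edgeR, 824 with DESeq2, 1 at an adjusted p under 0.05, 290 with microglial markers as a covariate, 1239 among the 9 samples, and 363 to 604 on leaving out 1 sample. With endothelial markers as a covariate, the log2 fold changes of *Cxcl12* (0.19), *Atf3* (0.23), *C1qa* (0.12), *Rgs5* (1.05), *H2-D1* (0.20) and *Cd68* (1.36) changed sign. With microglial and endothelial markers as a covariate, list medians below 0 were above 0 for complement (0.28 and 0.11), border macrophage (0.68 and 1.22), neuron (1.17 and 0.68), Fc gamma and Toll-like receptor (0.15 and 0.12) and chemokine genes (0.19 and 0.31), and with microglial markers for STAT3 targets (0.15) and collagen genes (0.19), among others, and the neuron median was -0.95 to 0.10 on leaving out 1 sample. The cause was not tested. Numbers shared by samples of both groups did not pair them, with correlations of -0.08 to 0.09 between same-numbered samples and none correlating best with its own number, and a fit with replicate block called 1433 genes, 1067 higher and 366 lower.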
